A study of Mus musculus with 14 samples.

Results

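The G2 and mitosis genes are a set of 46 mouse genes, listed by name, whose products carry a cell from the end of DNA replication through chromosome segregation to cytokinesis. Of these, 45 had at least 1 probe among the 16098 genes of the array, Cenpf had no matched probe, and 39 passed the filter on dim signals that 8944 genes passed in all. Expression was measured in 4 groups of C57BL/6 mouse retina on single-colour arrays of long oligonucleotides: P0 Notch1+ cells (4 arrays), P0 whole retina (4 arrays), E14 Notch1+ cells (3 arrays) and E14 whole retina (3 arrays), where P0 is the day of birth and E14 is embryonic day 14. Notch1+ cells had been drawn from dissociated retinas with a biotin-labelled antibody to the Notch1 receptor and magnetic beads that bind biotin, and whole retina was the unselected tissue, so it held Notch1+ cells as well. All animals were untreated. Each Notch1+ preparation pooled many eyes, and the number of eyes in a whole retina sample is not stated. The paper describes its replicates as biological and independent, but neither it nor the labels say whether they came from separate litters. The p-values measure the spread between these arrays, which may be partly technical.

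A dividing cell enters mitosis when cyclin B and the kinase Cdk1 form an active complex, which the Cdc25 phosphatases switch on. The kinases Plk1 and Aurora then build the spindle, the checkpoint proteins hold anaphase until chromosomes are attached, and Cdc20 with the anaphase promoting complex ends mitosis by destroying cyclin B and securin. Genes of this programme are transcribed together late in the cell cycle, and their promoters are known for 2 short sequences: the cell cycle genes homology region (CHR), read by the DREAM and MuvB complexes, and the CCAAT box, read by NF-Y. In the developing retina, progenitor cells divide and newborn neurons do not, and the share of dividing cells declines towards the end of neurogenesis. Bulk signal cannot tell fewer cycling cells in a sample from less of an RNA in each cell.

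RefSeq promoter entries, each 250 bases before to 50 after a transcription start site on build GRCm38.p6, matched 38 of the 46 genes with 41 entries. The motifs were chosen from what is known of such genes. The CHR, searched as TTTGAA or TTCGAA on either strand, stood in 32 of these 41 promoters (78%), against 19.2% of all 32851 promoters of this length. CCAAT, on either strand, stood in 33 of the 41 (80.5%), against 37.4% of all. Both together stood in 29 (70.7%), against 7.52% of all. In these promoters 1 pair of matches overlapped, and a match is a run of letters, not a bound site. A selection of 6 promoters follows as the 250 bases before the start, 5′ to 3′, with CHR and CCAAT matches on either strand in capitals: Cdc20, Cks1b, Ccnb1 and Kif2c, whose RNA was higher in P0 Notch1+ cells, and Cdk1 and Top2a, whose RNA did not pass the test there.
Cdc20 (chr4:118437344-118437593, strand minus): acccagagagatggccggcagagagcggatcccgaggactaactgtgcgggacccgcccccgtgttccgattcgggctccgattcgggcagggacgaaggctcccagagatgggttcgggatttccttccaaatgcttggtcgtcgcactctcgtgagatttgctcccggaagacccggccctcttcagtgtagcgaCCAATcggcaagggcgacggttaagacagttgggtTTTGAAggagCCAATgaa
Cks1b (chr3:89418292-89418541, strand minus): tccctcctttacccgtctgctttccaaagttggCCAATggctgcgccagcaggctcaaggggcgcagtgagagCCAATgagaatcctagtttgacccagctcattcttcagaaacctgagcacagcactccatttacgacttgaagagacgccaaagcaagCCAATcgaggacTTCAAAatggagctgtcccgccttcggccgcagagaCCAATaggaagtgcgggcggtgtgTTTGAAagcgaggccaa
Ccnb1 (chr13:100786487-100786736, strand minus): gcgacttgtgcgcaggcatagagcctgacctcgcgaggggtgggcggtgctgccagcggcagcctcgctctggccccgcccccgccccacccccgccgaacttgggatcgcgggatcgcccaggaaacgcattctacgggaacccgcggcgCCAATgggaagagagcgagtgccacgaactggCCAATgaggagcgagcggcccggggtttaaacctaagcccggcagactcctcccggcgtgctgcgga
Kif2c (chr4:117178773-117179022, strand minus): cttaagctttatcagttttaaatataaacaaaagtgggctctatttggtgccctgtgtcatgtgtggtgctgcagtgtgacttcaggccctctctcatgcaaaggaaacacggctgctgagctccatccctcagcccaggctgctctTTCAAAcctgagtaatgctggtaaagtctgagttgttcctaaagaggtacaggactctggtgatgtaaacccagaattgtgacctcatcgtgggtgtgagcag
Cdk1 (chr10:69352913-69353162, strand minus): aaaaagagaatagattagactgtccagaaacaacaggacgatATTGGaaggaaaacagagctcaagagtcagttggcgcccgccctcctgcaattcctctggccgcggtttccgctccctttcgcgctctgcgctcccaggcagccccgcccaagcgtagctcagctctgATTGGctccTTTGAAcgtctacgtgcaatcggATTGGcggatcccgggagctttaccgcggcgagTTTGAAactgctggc
Top2a (chr11:99024190-99024439, strand minus): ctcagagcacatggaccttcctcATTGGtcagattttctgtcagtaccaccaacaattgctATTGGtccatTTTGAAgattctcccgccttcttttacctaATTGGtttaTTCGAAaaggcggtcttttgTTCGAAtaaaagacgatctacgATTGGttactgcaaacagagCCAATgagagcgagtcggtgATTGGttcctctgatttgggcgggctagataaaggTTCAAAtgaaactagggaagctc
Cdc20 held a single CHR, at position -18 from the start and between a pair of CCAAT boxes, Cks1b held 2 CHR and 4 CCAAT matches, and Ccnb1 held 2 CCAAT boxes and no CHR. Kif2c held 1 CHR and no CCAAT, while Cdk1 held 2 CHR and 3 CCAAT matches and Top2a held 4 CHR and 6 CCAAT matches. The Kif2c stretch lies inside the annotated gene (chr4:117159633-117182624). It therefore stands for an internal start, and its lack of CCAAT does not describe the upstream end of the gene. Of the genes with an entry, 7 of 9 called higher at P0 and 18 of 23 tested but not called held a CHR, a description with no test.

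**Figure D1:**
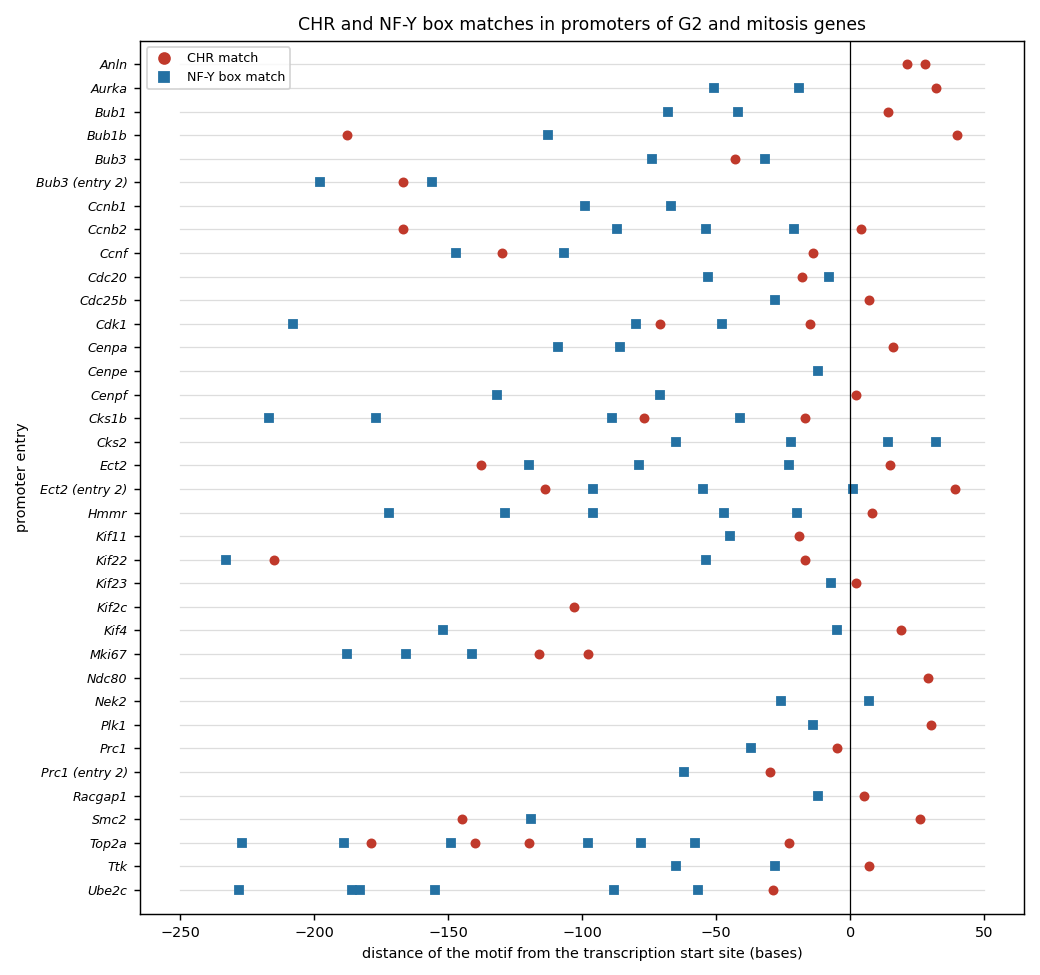
Positions of CHR matches (circles) and of matches to the CCAAT box that NF-Y reads (squares) in the promoter entries of G2 and mitosis genes with at least 1 match, in bases from the transcription start site. The CHR nearest the start lay at -18 in Cdc20 and at -15 in Cdk1, and Ccnb1 has CCAAT matches only.

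Of 34312 mouse probes, 9764 to 10718 stood above background on the P0 Notch1+ arrays, against 11345 to 13547 on the P0 whole retina arrays, which did not overlap, and 9332 to 10648 on the E14 Notch1+ arrays, against 10609 to 11975 on the E14 whole retina arrays. At P0, 0 to 1 spots were saturated in Notch1+ cells, against 10 to 19 in whole retina, and the part of these differences in the results was not tested. No spot of a G2 or mitosis gene was saturated, and the arrays correlated at r of 0.82 to 0.95. Notch1, the receptor used for the selection, was higher in Notch1+ cells at both stages, by 1.39 ± 0.29 on the log2 scale at P0 and by 1.49 ± 0.33 at E14. At P0 the Notch1+ samples and the whole retina samples were scanned on different days from each other and from the E14 arrays, so at P0 and between stages day and group cannot be told apart. The 6 E14 arrays were scanned on the same day. File headers mark all 7 whole retina arrays and 3 of 7 Notch1+ arrays as re-dipped, and this too moved with the groups. Its part in the results was tested only as a covariate.

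At P0, 13 of the 39 tested G2 and mitosis genes were called higher in the Notch1+ cells, relative to whole retina, and none was lower, where 8.78% of all tested genes were called higher and 11.6% lower. The 13 came from 6 of 8 roles: mitotic entry (Ccnb1, Cks1b, Cdc25b, Foxm1), mitotic kinases and the chromosomal passenger complex (Plk1, Aurkb, Incenp), partners of the anaphase promoting complex (Cdc20), the kinetochore (Cenpe), spindle motors and assembly factors (Kif23, Kif2c, Tpx2) and cytokinesis (Ect2). No gene of the spindle assembly checkpoint or of chromosome structure was called. The median log2 difference of the 39 genes was 0.59, with 35 of them positive, against -0.01 for all genes, and it was 0.28 with arrays scaled to a common 75th percentile, 0.29 in the authors' value table and -0.03, the opposite sign, with arrays scaled to a common median.

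In 15 of the 39 genes every P0 Notch1+ array read above every P0 whole retina array, and in 0 every array read below, against 10.5% and 13% of all genes. At an unadjusted p under 0.05, 16 genes were higher and 0 lower by limma, against 15.4% and 18.1% of all genes. By the methods' t-test 18 were higher and 1, Ccnb2, lower, against 13.5% and 16.3% of all genes (29.8% in either direction), and after Benjamini-Hochberg adjustment it called 5 higher and 0 lower. Cdc20 and Cks1b were called in each of 28 alternative settings, which include each array left out, whereas 3 of the 13 kept their call with arrays scaled to a common median and 5 when the model also held the re-dip mark. With that mark in the model the 8 genes that lost their call had differences of 0.62 to 1.78 (Aurkb 0.63, Foxm1 0.65, Incenp 1.78, Plk1 0.82), and the median of the 39 was 0.47. The scaling also moved the whole array: of 13683 tested probes 1227 were called higher and 1467 lower, against 320 and 3778 with a common median, 1070 and 2046 with a common 75th percentile and 780 and 2273 in the authors' value table. The median difference of all probes was -0.37, -0.05 and -0.19 in these settings.

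Markers of other cells moved with the same comparisons. Of 12 tested genes of ganglion cells and young neurons, 11 were lower in P0 Notch1+ cells than in P0 whole retina and 7 were lower at E14. The summed intensity of the list was 10626 to 14695 in P0 Notch1+ cells, against 21061 to 31889.6 in P0 whole retina, and 20249.8 to 20641 in E14 Notch1+ cells, against 46934 to 53346 in E14 whole retina. On no P0 Notch1+ array were Sncg, Isl1, Thy1, Gap43, Nefm, Pou4f2, Pou4f1 or Nefl above background. Of 5 tested photoreceptor precursor genes, Crx, Nrl, Rxrg and Rcvrn were lower in P0 Notch1+ cells than in P0 whole retina and the same 4 were higher at P0 when the stages of whole retina were compared.

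Immediate early genes, which respond to handling and dissociation among other stimuli, were higher in Notch1+ cells in 7 of 10 tested at P0, where Ier3 was lower, and in 6 of 10 at E14. Their sum was 41437 to 79806 in P0 Notch1+ cells, against 5332 to 6993 in P0 whole retina, and 14904 to 18879.6 in E14 Notch1+ cells, against 3841 to 5548 in E14 whole retina. Endothelial genes were higher in 3 of 9 tested at P0 (Pecam1, Tie1 and Cldn5) and 0 of 9 at E14, with sums of 3622 to 6747 in P0 Notch1+ cells, against 2172 to 2617 in P0 whole retina, and 1614 to 4188 in E14 Notch1+ cells, against 1342 to 1525 in E14 whole retina. The part of these other cells and of handling in the values of the G2 and mitosis genes was not tested.

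**Figure D2:**
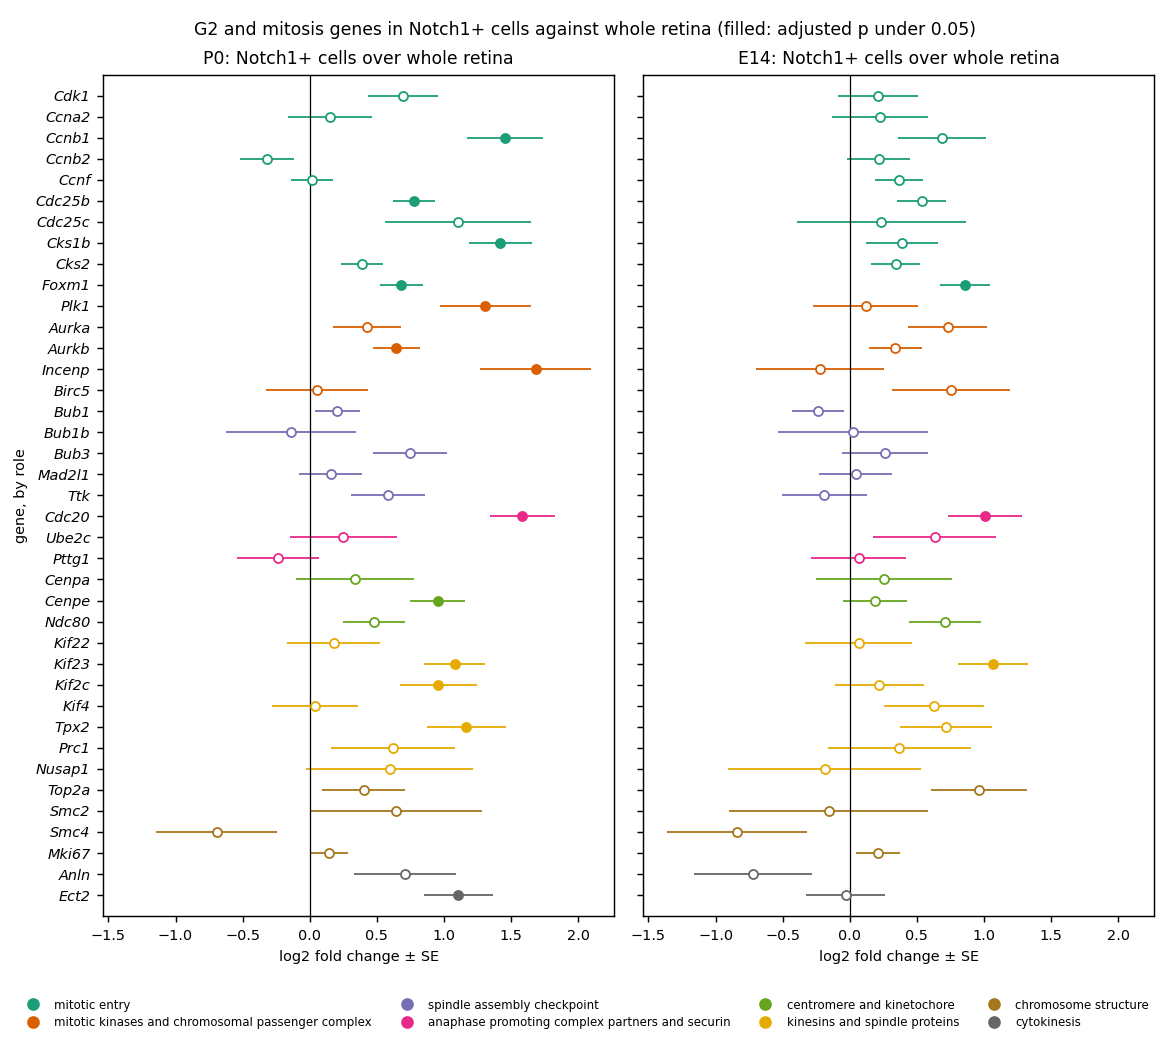
Log2 fold change of each of the 39 tested genes in Notch1+ cells over whole retina at P0 (left) and E14 (right), from limma over 14 arrays, coloured by role. Bars are standard errors and filled points have an adjusted p under 0.05: 13 genes at P0, all to the right of 0, and 3 at E14. With arrays scaled to a common median, the median at P0 fell to -0.03 and Aurkb and Foxm1 turned to slightly negative values. The median of all probes was then -0.37.

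Among the genes of mitotic entry, 4 of 10 rose in P0 Notch1+ cells. Ccnb1, which encodes cyclin B1, the partner that activates Cdk1, had signal intensities of 5204, 3438, 7253 and 6095 on the P0 Notch1+ arrays, against 2097, 1856, 1839 and 1959 on the P0 whole retina arrays. Each Notch1+ array lay above every whole retina array, and the log2 fold change was 1.45 ± 0.28 (SE, adjusted p = 0.00298 by limma). The other tested Ccnb1 probe gave 0.23 ± 0.67 and was not called, so the probes disagreed. Cks1b, a small subunit bound to cyclin-dependent kinases, read 385, 566, 450.3 and 311 in P0 Notch1+ cells, against 177, 112, 185 and 163 in P0 whole retina. The groups did not overlap, and the difference was 1.42 ± 0.23 (adjusted p = 0.000844).

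Cdc25b, a phosphatase that removes inhibitory phosphate from Cdk1, had 406, 339.6, 434 and 304 in P0 Notch1+ cells, against a narrow 213, 209, 217 and 221 in P0 whole retina. All Notch1+ arrays were higher, by 0.77 ± 0.16 on the log2 scale (adjusted p = 0.00384). Foxm1, the transcription factor that drives G2 and M genes, read 2514, 1811, 1659 and 1625 in P0 Notch1+ cells, against 1214, 1258, 974 and 1244 in P0 whole retina. It was higher on every Notch1+ array, by 0.68 ± 0.16 (adjusted p = 0.00975), but by -0.08, the opposite sign, with arrays scaled to a common median. Its other probe gave 0.71 ± 0.34, adjusted p = 0.161.

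Cdk1 itself, the kinase at the centre of mitotic entry, was not called. It had 3422, 3592, 4294 and 2304 in P0 Notch1+ cells, against 3128, 1768, 1628 and 1962 in P0 whole retina, a difference of 0.70 ± 0.26 (adjusted p = 0.0759). Replicate 4 of the Notch1+ arrays and replicate 1 of the whole retina arrays overlapped. The remaining members of this role lay between -0.32 for Ccnb2, cyclin B2, whose probe did not clear background in any P0 Notch1+ sample, and 1.10 ± 0.55 for Cdc25c. A different Cdc25c probe passed the test, at 1.66 ± 0.48 with adjusted p = 0.0266, while the gene's remaining probe gave 0.62 ± 0.25 and did not. Ccna2 (cyclin A2) and Cks2 had differences of 0.15 and 0.39 and did not pass, with Cks2 above background on 3 of 4 P0 Notch1+ arrays and 1 of 4 P0 whole retina arrays. Ccnf was above background on 0 and 1 of these 4 arrays, so a difference was not detectable.

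Of 5 tested mitotic kinases and passenger genes, 3 rose. Incenp, the scaffold of the chromosomal passenger complex, showed the largest log2 difference of the 39, 1.68 ± 0.41 (adjusted p = 0.0116). Its intensities were 900.4, 1120.2, 2171 and 1406 in P0 Notch1+ cells, against 220.3, 394, 372 and 894 in P0 whole retina. The groups barely cleared each other, with Notch1+ replicate 1 just above whole retina replicate 4. Plk1, the kinase that drives spindle formation, read 1530.1, 716, 983 and 1592 in P0 Notch1+ cells, against 817, 393, 263 and 543 in P0 whole retina. Notch1+ replicate 2 fell below whole retina replicate 1, and the difference was 1.31 ± 0.34 (adjusted p = 0.0159), a call lost without Notch1+ replicate 4.

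Aurkb, the kinase of the passenger complex, read 2878, 2694, 2150.3 and 2088 in P0 Notch1+ cells, against 1414, 1859.9, 1278 and 1729 in P0 whole retina. All Notch1+ values were higher, by 0.65 ± 0.17 (adjusted p = 0.0181), though the sign turned to -0.14 with arrays scaled to a common median and the call was lost without Notch1+ replicate 1 or without whole retina replicate 1 or 3. Aurka, the centrosomal Aurora kinase, gave 0.42 ± 0.25, and Birc5, also called survivin, gave 0.05 ± 0.38. Neither passed the test, and Nek2, a centrosome kinase, was above background on no array.

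Cdc20, the activator that targets the anaphase promoting complex to cyclin B and securin, was the most clearly separated gene by adjusted p. Its intensities were 1683, 1794, 1939 and 2284 in P0 Notch1+ cells, against 687, 929.9, 513 and 504 in P0 whole retina. The lowest Notch1+ array read well above the highest whole retina array, and the difference was 1.58 ± 0.24 (adjusted p = 0.000486). The other tested probe of Cdc20 gave 0.72 ± 0.25 with adjusted p = 0.0584, in the same direction. Ube2c, the ubiquitin conjugating enzyme of this complex, and Pttg1, which encodes securin, gave 0.25 ± 0.40 and -0.24 ± 0.31 and were not called.

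At the kinetochore, Cenpe, a motor that holds chromosomes on spindle microtubules, had 244, 431, 410.3 and 229.7 in P0 Notch1+ cells, against 158, 179.6, 166 and 149 in P0 whole retina. Every Notch1+ array was higher, with a pair of them far above the rest, and the difference was 0.95 ± 0.21 (adjusted p = 0.0056). A different probe of Cenpe gave 0.39 ± 0.18 and did not pass. Cenpa, the centromeric histone, and Ndc80, of the outer kinetochore, gave 0.34 ± 0.44 and 0.48 ± 0.23, both not called, and Nuf2 was dim on all arrays.

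Kif23, the motor of the central spindle, had 4828, 3287, 4242 and 3621 in P0 Notch1+ cells, against 1830.5, 1802, 2252 and 1648 in P0 whole retina. The groups were far apart, at 1.08 ± 0.23 (adjusted p = 0.00466), although 1 of the 4 Notch1+ spots did not pass the rule for background. Tpx2, which activates Aurora A on the spindle, read 5734, 8638, 7375 and 5909 in P0 Notch1+ cells, against 3310.0, 4122, 1739 and 3578 in P0 whole retina. All Notch1+ arrays were brighter, by 1.17 ± 0.29 (adjusted p = 0.0139). Kif2c, a microtubule depolymerase at the centromere, read 575, 262, 735 and 299 in P0 Notch1+ cells, against 231, 227, 196 and 227 in P0 whole retina. It was higher on all Notch1+ arrays but widely scattered among them, at 0.96 ± 0.29 (adjusted p = 0.0312), and the call was lost on leaving out any of 6 of the 8 P0 arrays.

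Ect2, the exchange factor that starts the cleavage furrow, had 1199.6, 529, 684 and 587 in P0 Notch1+ cells, against 391, 418, 325 and 223 in P0 whole retina. The groups did not overlap, and the difference was 1.11 ± 0.25 (adjusted p = 0.0079). Anln, anillin of the contractile ring, gave 0.71 ± 0.38 and was not called. Of the spindle proteins not yet named, Kif22, Kif4, Prc1 and Nusap1 lay between 0.04 and 0.62, and Kif11, Kif20a, Hmmr and, in cytokinesis, Racgap1 were above background on no array.

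Mki67 and Top2a, both used as marks of dividing cells in tissue, were not called at P0. Mki67, which encodes the Ki-67 antigen coating mitotic chromosomes, read 103, 113, 135 and 117 in P0 Notch1+ cells, against 101, 113, 109 and 99.7 in P0 whole retina. None of these 8 spots stood above background, so a difference was not detectable at this signal. Top2a, the topoisomerase that untangles sister chromatids, read 663, 262, 758 and 579 in P0 Notch1+ cells, against 327, 608, 286 and 440.2 in P0 whole retina. The groups overlapped, at 0.40 ± 0.31 (adjusted p = 0.403). The condensin subunits Smc2 and Smc4 gave 0.64 ± 0.64 and -0.69 ± 0.45. Among the checkpoint genes, Bub3 and Ttk gave 0.75 ± 0.28 and 0.58 ± 0.27, Bub1, Bub1b and Mad2l1 lay between -0.14 and 0.21, and none passed.

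**Figure D3:**
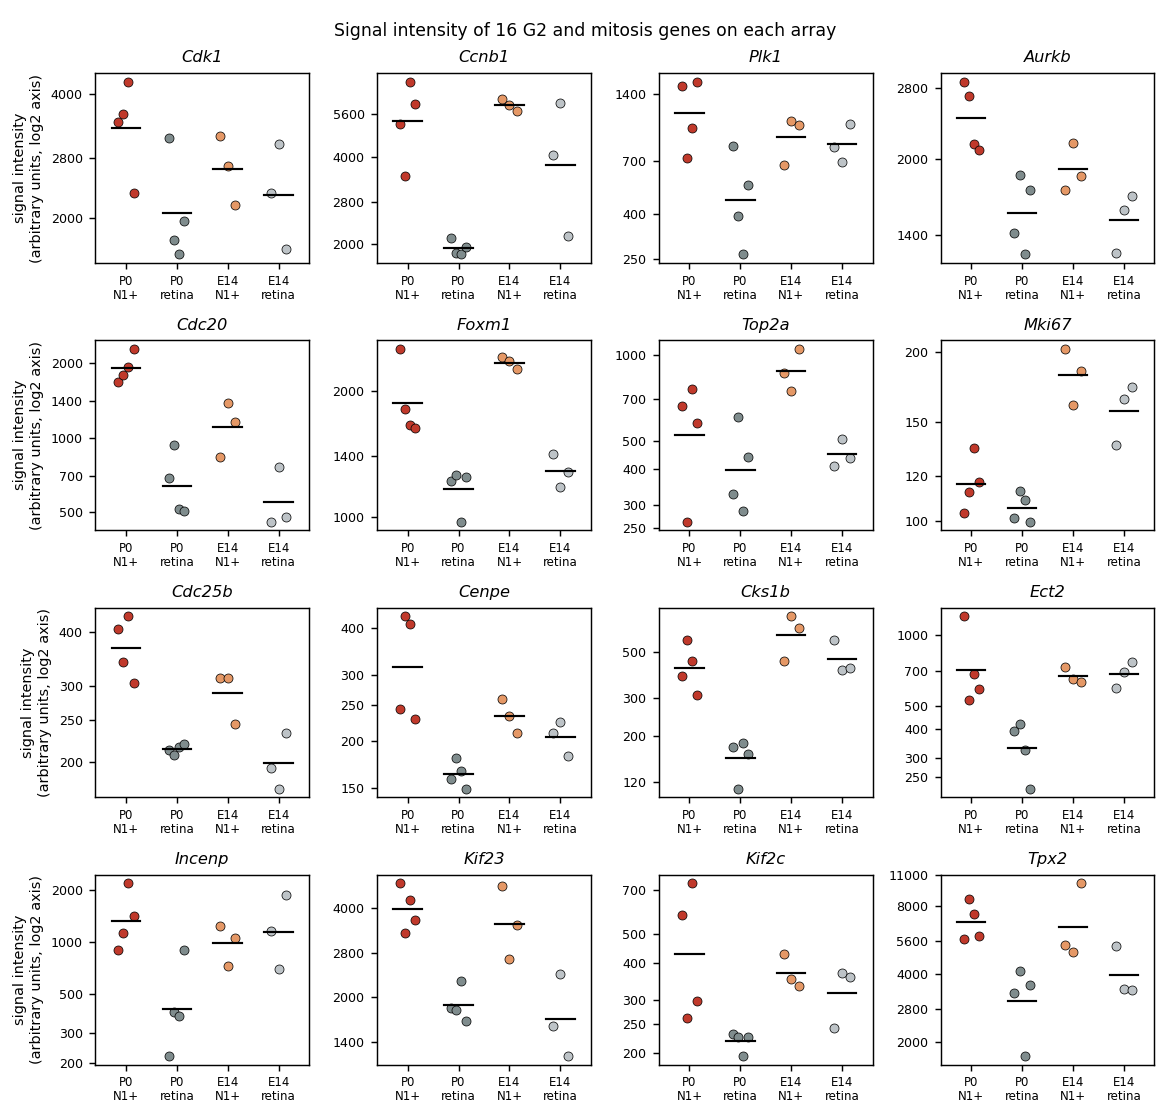
Signal intensity (arbitrary units, log2 axis) of 16 G2 and mitosis genes on each array of P0 Notch1+ cells, P0 whole retina, E14 Notch1+ cells and E14 whole retina. Points are arrays and bars are geometric means. In 12 of the 13 genes called at P0 the Notch1+ arrays lie wholly above those of whole retina, the exception being Plk1, though Aurkb and Foxm1 turned slightly negative with a common median, and Mki67 is highest at E14.

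At E14, 3 of the 39 genes were called higher in the Notch1+ cells, relative to whole retina, and none lower, where 2.61% of all tested genes were called higher and 3.71% lower. The median log2 difference was 0.23 with 31 of 39 positive, and it stayed positive under each other scaling, at 0.04 to 0.25. Over all probes 365 were higher and 443 lower, against 240 and 657 with a common median, where their median difference was -0.14. Foxm1 read 2404, 2352 and 2248 in E14 Notch1+ cells, against 1415, 1174 and 1280.3 in E14 whole retina. All 3 Notch1+ values were tightly grouped above the others, by 0.86 ± 0.19 (adjusted p = 0.0155), while the gene's other probe gave 0.25 ± 0.39 with adjusted p = 0.812.

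Kif23 had 4721, 2669.7 and 3488 in E14 Notch1+ cells, against 1592, 2386 and 1261 in E14 whole retina, with no overlap and a difference of 1.07 ± 0.26 (adjusted p = 0.028). Cdc20 had 837, 1383 and 1153 in E14 Notch1+ cells, against 456, 758 and 475 in E14 whole retina. Its lowest Notch1+ array was only slightly above the highest whole retina array, and the difference of 1.01 ± 0.28 lay close to the threshold (adjusted p = 0.0482). With the 6 E14 arrays alone in the model only Foxm1 was called, none of the 3 was called without E14 whole retina replicate 3, with a common median or in the authors' value table, and 1 was called without E14 Notch1+ replicate 1 or E14 whole retina replicate 1. The difference of each of the 3 was positive in all 28 alternative settings. At an unadjusted p under 0.05, 7 genes were higher and 0 lower by limma, against 8.78% and 11% of all genes, and 6 were higher and 0 lower by the methods' t-test, against 7.37% and 9.98% (17.4% in either direction).

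Several genes called at P0 overlapped between the groups at E14. Ect2 read 729, 646.8 and 629 in E14 Notch1+ cells, against 595, 696 and 766 in E14 whole retina, a difference of -0.03 ± 0.29. Incenp read 1233, 727 and 1045 in E14 Notch1+ cells, against 1148, 699.6 and 1856 in E14 whole retina, at -0.22 ± 0.48. Plk1 read 671, 1063 and 1019 in E14 Notch1+ cells, against 804, 687 and 1030.3 in E14 whole retina, at 0.12 ± 0.39. In all 3 of these genes the E14 groups overlapped.

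Ccnb1, Cdc25b and Top2a had larger differences at E14 but did not pass. Ccnb1 read 6344, 6016 and 5765 in E14 Notch1+ cells, against a scattered 4067, 6110.1 and 2125 in E14 whole retina, at 0.69 ± 0.33 (adjusted p = 0.275). Cdc25b read 312, 313 and 245 in E14 Notch1+ cells, against 194, 174 and 234 in E14 whole retina, without overlap, at 0.53 ± 0.18 (adjusted p = 0.11). Top2a read 863, 747 and 1048 in E14 Notch1+ cells, against 411, 508 and 435 in E14 whole retina, also without overlap, at 0.96 ± 0.36 (adjusted p = 0.149). In all, 8 of 39 genes had E14 Notch1+ arrays wholly above whole retina and 0 wholly below, against 11.3% and 14.3% of all genes.

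Cdk1 read 3173, 2675 and 2147 in E14 Notch1+ cells, against 2305, 3034 and 1677 in E14 whole retina, and Aurkb read 1734, 2162 and 1849 in E14 Notch1+ cells, against 1289, 1578 and 1681 in E14 whole retina. Neither was called, at 0.21 ± 0.30 for Cdk1, whose groups overlapped, and 0.34 ± 0.20 for Aurkb, whose groups did not. Cks1b read 452, 736 and 649 in E14 Notch1+ cells, against 569, 407 and 418 in E14 whole retina, and Cenpe read 259, 233 and 210.2 in E14 Notch1+ cells, against 209.8, 226 and 182 in E14 whole retina. Both overlapped, at 0.39 ± 0.27 and 0.19 ± 0.24. Kif2c read 427, 355 and 335 in E14 Notch1+ cells, against 242, 371 and 357 in E14 whole retina, and Tpx2 read 5401, 5010.4 and 10090.0 in E14 Notch1+ cells, against 5304, 3422 and 3401 in E14 whole retina. Their groups overlapped too, at 0.22 ± 0.33 and 0.72 ± 0.34, Tpx2 with 1 very bright Notch1+ array.

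The difference between the stages was tested directly, as the Notch1+ minus whole retina difference at P0 less that at E14. None of the 39 genes passed in either direction by limma, where 1.13% of all tested genes were called higher and 1.72% lower, and at an unadjusted p under 0.05 there were 6 higher and 0 lower, against 9.1% and 9.96% of all genes. The median was 0.24, but -0.12 with arrays scaled to a common median and -0.01 in the authors' value table. The median of all probes was -0.23 and -0.16 in these last settings. Relative to all probes, the 39 genes stood at 0.24, 0.11 and 0.15. As no gene passed, no direction is given. Over all probes 130 were called higher and 208 lower, against 69 and 522, 104 and 344, and 95 and 332 with a common median, a common 75th percentile and the authors' value table. The largest values were 1.91 ± 0.63 for Incenp, 1.43 ± 0.58 for Anln, 1.19 ± 0.52 for Plk1 and 1.14 ± 0.39 for Ect2. The lowest adjusted p of the 39 was 0.129, for Incenp. For Foxm1 and Kif23 the same quantity was -0.18 ± 0.25 and 0.01 ± 0.35.

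Between stages the whole retina changed more often than the Notch1+ cells in these counts, which were not compared by a test. The order of the counts depended on the scaling. With arrays scaled to a common median, 5 genes were lower at P0 in whole retina and 7 in Notch1+ cells, with medians of -0.37 and -0.47. Over all probes 1057 and 1498 were then called lower, with medians of -0.02 and -0.26. Relative to the median of all probes, the 39 genes stood at -0.35 in whole retina and -0.22 in Notch1+ cells. With quantile normalization these values were -0.33 and -0.12. In whole retina 7 of 39 genes were lower at P0 than at E14 and 0 were higher, where 7.54% of all genes were called lower and 8.45% higher. The median was -0.33, with 29 of 39 negative, and lay between -0.32 and -0.42 under each other scaling. At an unadjusted p under 0.05, 9 were lower and 0 higher by limma, against 14.5% and 15.8% of all genes, and 9 and 0 by the methods' t-test, against 13.6% and 14.7% (28.3% in either direction). The P0 and E14 whole retina arrays did not overlap in 9 genes, all lower at P0, where 14.1% of all genes lay wholly lower.

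Cks1b fell furthest, to 177, 112, 185 and 163 in P0 whole retina, against 569, 407 and 418 in E14 whole retina. The dimmest E14 array was well above the brightest P0 array, the difference was -1.56 ± 0.25 (adjusted p = 0.00126), and the call held in 28 of 28 alternative settings. Incenp read 220.3, 394, 372 and 894 in P0 whole retina, against 1148, 699.6 and 1856 in E14 whole retina. Its groups overlapped through P0 replicate 4, and the difference of -1.47 ± 0.45 (adjusted p = 0.0417) was lost in 12 of 28 alternative settings. Ect2 read 391, 418, 325 and 223 in P0 whole retina, against 595, 696 and 766 in E14 whole retina, with no overlap and a difference of -1.05 ± 0.27 (adjusted p = 0.0216).

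The spindle assembly checkpoint held 3 of the 7 calls, given array by array here after their values were seen. Bub3, which recruits checkpoint kinases to kinetochores, read 485, 414, 352 and 375 in P0 whole retina, against 659, 776 and 1106 in E14 whole retina (-1.04 ± 0.30, adjusted p = 0.0335). Ttk, the Mps1 kinase that starts the checkpoint, read 552, 711, 581 and 842 in P0 whole retina, against 1699, 1598 and 845 in E14 whole retina (-0.99 ± 0.30, adjusted p = 0.0388). Bub1, a checkpoint kinase, read 151, 149, 136 and 184 in P0 whole retina, against 258, 309 and 232 in E14 whole retina (-0.78 ± 0.18, adjusted p = 0.012). In each of these genes all P0 arrays were lower than all E14 arrays, Ttk by a narrow margin. The number called varied with single arrays: 2 genes were called without E14 whole retina replicate 2, and 4 without E14 whole retina replicate 3 or any 1 of the 4 P0 whole retina arrays.

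Mki67 was lower at P0 in both fractions. It read 103, 113, 135 and 117 in P0 Notch1+ cells, against 202, 161 and 184 in E14 Notch1+ cells, and 101, 113, 109 and 99.7 in P0 whole retina, against 136, 165 and 173 in E14 whole retina. No P0 spot stood above background, so only a bound can be given: the E14 mean was set against the higher, per array, of the P0 signal and the lowest signal of any probe above background. On that basis Mki67 was at least 1.27-fold lower at P0 in Notch1+ cells and at least 1.21-fold lower at P0 in whole retina. Of the E14 spots, 3 of 3 and 2 of 3 were above background. The bounds themselves were not tested. By limma on the values without the bound, the adjusted p was 0.0176 in Notch1+ cells and 0.0232 in whole retina.

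In Notch1+ cells, 2 of the 50 tested probes of the 39 genes were called lower at P0 than at E14 and 0 higher. By the brightest probe of each, Mki67 was the only gene of the 39 called between the stages and 0 were higher. Of all genes 7.18% were called higher and 5.58% lower. At an unadjusted p under 0.05 there were 4 lower (Mki67, Aurka, Ndc80 and Top2a) and 1 higher (Cdc20) by limma, against 14% and 15.1% of all genes, and 4 lower (Mki67, Ndc80, Ccnb2 and Ccnf) and 1 higher (Cdc20) by the methods' t-test, against 11.6% and 12.6% (24.2% in either direction), so these counts lay no higher than those of all genes. Without E14 Notch1+ replicate 1 none was called lower, and without E14 Notch1+ replicate 3, P0 Notch1+ replicate 2 or P0 whole retina replicate 2 there were 2. The median was -0.14 with 21 of 39 negative, and it was -0.27 to -0.47 with arrays scaled to a common percentile or median or in the authors' value table, and 0.04 without P0 Notch1+ replicate 4. Over all probes 810 were higher and 708 lower, against 293 and 1498, 540 and 770, and 782 and 1188 with a common median, a common 75th percentile and the authors' value table, and the median difference of all probes was -0.26 with the common median. Values that stayed close were those of Ccnb1 (-0.19 ± 0.31), Ect2 (0.09 ± 0.27), Tpx2 (0.07 ± 0.32) and Kif23 (0.16 ± 0.24). Cdc20 differed by 0.80 ± 0.26 with no overlap but adjusted p = 0.065, and Aurka, Ndc80 and Top2a by -0.77 ± 0.27, -0.74 ± 0.25 and -0.74 ± 0.34, also not called.

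**Figure D4:**
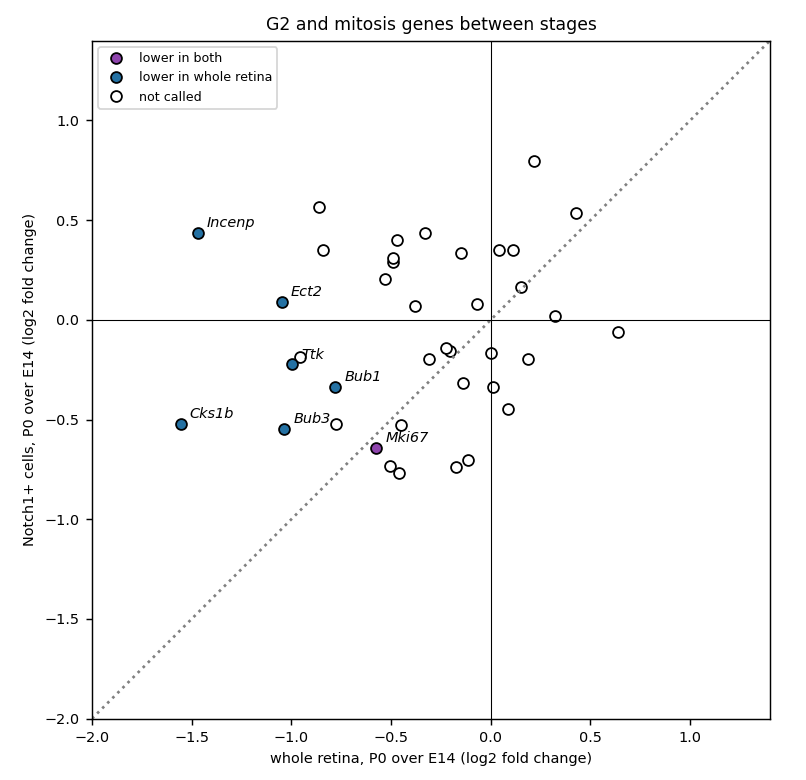
Log2 fold change, P0 over E14, of the 39 tested genes in Notch1+ cells (vertical axis) against whole retina (horizontal axis), which share no array. Filled points passed the test: 7 genes were lower in P0 whole retina, and of these only Mki67 was also called in Notch1+ cells. The dotted line marks equal change. With arrays scaled to a common median, 5 genes were lower at P0 in whole retina and 7 in Notch1+ cells. The medians of all probes were then -0.02 and -0.26.

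Across arrays, the median log2 intensity of the 39 genes was 9.34 to 9.94 in P0 Notch1+ cells, against 8.78 to 9.08 in P0 whole retina, and 9.39 to 9.99 in E14 Notch1+ cells, against 9.42 to 9.60 in E14 whole retina. The P0 whole retina arrays were the low group, and the other 3 groups overlapped. Over all genes the same median was 8.47 to 8.52 on every array, as the normalization sets it. In the test for any difference among the 4 groups, 17 of 39 genes passed (43.6%), against 36.2% of all genes, and under the methods' One-Way ANOVA 19 did at an unadjusted p under 0.05, against 44.8% of all genes, and 15 after Benjamini-Hochberg adjustment. Within groups, over 741 pairs and 14 arrays, which share their normalization, the median correlation of group-centred values was 0.06, with 56.1% of pairs positive against 50% for all genes.

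**Figure D5:**
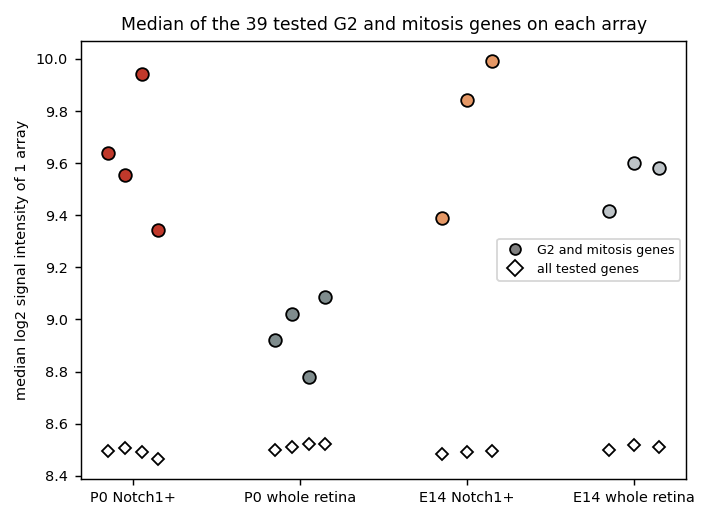
Median log2 signal intensity of the 39 tested G2 and mitosis genes (circles) and of all tested genes (diamonds) on each array. The 4 P0 whole retina arrays lie lowest, at 8.78 to 9.08, against 9.34 to 9.94 in P0 Notch1+ cells. With arrays scaled to a common median instead, the median difference between these groups was -0.03, against -0.37 over all probes.

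Other cell cycle genes were counted in the quantile normalized data only. They came from 5 further lists of condensin, kinetochore, spindle, mitotic enzyme and MuvB genes, chosen with earlier results known. Not all of them are specific to G2 and mitosis, since the lists also hold E2f factors and Cdc25a. Of 97 tested, 22 were higher and 1, Cdc26, lower in P0 Notch1+ cells than in P0 whole retina, with a median of 0.29. In the same comparison 8.78% of all tested genes were called higher and 11.6% lower. The spindle and kinesin list held 11 of the 22 among 24 tested. The largest there were Kifc5b (2.38 ± 0.40), Troap (1.35 ± 0.22) and Ckap2 (1.31 ± 0.24), named after their values were seen. At E14, E2f2 (0.82 ± 0.19) and Ube2s (1.47 ± 0.32) were higher and none of the 97 was lower. Of all genes 2.61% were called higher there and 3.71% lower, so the count of higher genes lay near the share of all genes. Between stages, 10 of the 97 were lower and 2 (E2f1 and Spc25) higher at P0 in whole retina, against 7.54% and 8.45% of all genes. In Notch1+ cells 4 were lower (E2f3, Cenph, Cdc25a and Diaph3) and 6 higher at P0. There 5.58% of all genes were called lower and 7.18% higher, so these Notch1+ counts lay near the shares of all genes. In the test of the difference between stages, Troap alone was called, at 1.52 ± 0.34, where 1.13% of all genes were called higher and 1.72% lower.

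Genes of S phase and DNA replication, 51 tested, were counted in the same way. In P0 Notch1+ cells 4 were higher than in P0 whole retina (Lig1, Mcm10, Mcm7 and Rfc3) and 1, Orc3, was lower, 7.84% and 1.96% of the list where 8.78% and 11.6% of all genes were called. At E14 none was higher and Dut and Uhrf1 were lower. There 2.61% of all genes were called higher and 3.71% lower, so the count of lower genes lay near the share of all genes. In P0 whole retina 14 (27.5%, against 7.54% of all genes) were lower than in E14 whole retina and none was higher, whereas in Notch1+ cells Orc1 was the only call, lower at P0. Between stages in Notch1+ cells 5.58% of all genes were called lower and 7.18% higher. The difference between stages was called for Lig1, DNA ligase 1 (2.62 ± 0.44), and Mcm10 (1.90 ± 0.45), both replication genes, where 1.13% of all genes were called higher and 1.72% lower. Of 12 tested cyclins D and E, their kinases and Cdk inhibitors, Cdk2 was higher (0.94 ± 0.23) and Cdkn1c lower (-1.27 ± 0.38) in P0 Notch1+ cells than in P0 whole retina, and none was called at E14. Between stages Cdkn1a (1.95 ± 0.35) and Cdkn2c (1.31 ± 0.15) were higher and Ccnd3 lower (-1.15 ± 0.29) at P0 in whole retina, and Cdkn2c was higher (1.12 ± 0.15) at P0 in Notch1+ cells. Between stages in whole retina 8.45% of all genes were called higher and 7.54% lower.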

How the data were processed

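RNA of Notch1+ cells and whole retina was labelled as biotinylated complementary RNA and hybridized to MEEBO arrays of 70-mer oligonucleotides. Per the file headers, spot intensity was read with GenePix Pro 4.1.1.4 and deposited without normalization. The authors also deposited a table of log2 values, background subtracted and scaled per array. The scale factor, which lay between 0.613 and 1.41 against the scanner readings, is not given in the sources used here, and the table served as an alternative.

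Intensities were background corrected with normexp (offset 50), bad spots (flag -100) were left out, and arrays were quantile normalized and put on the log2 scale. A spot stood above background where its median exceeded the background median by 2 background SDs, and probes above background on at least 3 of 14 arrays were tested (13683 probes, 8944 genes). Group means were fitted over the 14 arrays with limma 3.58.1 in R 4.3.3, the Benjamini-Hochberg adjustment ran over every tested probe, and an adjusted p under 0.05 was called. Each gene was represented by its brightest tested probe. The fit and the calls were tested on simulated data, with independent noise in each probe and 200 of 13683 probes changed. No shift by scan day, re-dip or scaling was simulated, so the share of false calls below does not cover these. For Notch1+ cells against whole retina, a log2 change of 1 was recovered in 50.5% of changed probes at P0 and 31% at E14. A log2 change of 2 was recovered in 90.5% and 87.5%, and 2.88% to 6.91% of the calls were false. The number of arrays limits the precision, and values are relative signal per probe, not comparable between genes.

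The 46 genes, the other lists, the motifs and the tests were chosen with earlier results of these data known. Arrays are named one by one for 9 genes whatever they showed, for every gene called in Notch1+ cells against whole retina, and for the 3 called genes with the largest change in each comparison between stages; Bub1, Bub3 and Ttk were added after their values were seen. Alternatives changed the background correction, scaling, filter, probe, model and arrays, and included the methods' Student t-test and One-Way ANOVA. Replicate numbers were not used to pair the samples in the main fit. Neither the labels nor the paper say whether samples of the same number shared a dissection.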

Additional observations from a re-analysis of the deposited data

Results flagged for a closer look

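Among 32 gene groups of 4 P0 arrays, 2 held an array far from the others by Dixon's ratio of gap to range on the log2 scale, and chance flags about 1 in 20 such groups. Foxm1 read 974 on P0 whole retina replicate 3, against 1214 to 1258 on the other 3 arrays, a gap of 0.86 of the group's log2 range. Kif2c read 196 on the same array, against 227 to 231, a gap of 0.89 of that range. Without this array Foxm1 kept its call in P0 Notch1+ cells against P0 whole retina, and Kif2c, at 0.90 against 0.96 with all arrays, did not, as it also did not without any other 1 of the P0 whole retina arrays.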

How the results depend on the processing

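The count of genes higher in P0 Notch1+ cells than in P0 whole retina was 13, but 3 with arrays scaled to a common median, 7 with a common 75th percentile, 6 in the authors' value table, 5 when the model held the re-dip mark (median 0.47, and 0.62 to 1.78 in the 8 genes that lost their call) and 5 by the methods' t-test, and 1 gene, Smc4, was then lower with the common median. At E14 the 3 genes higher became 0 with the common median and in the authors' value table, and 1 with only the E14 arrays in the model, by the methods' t-test or with the mean of a gene's probes. In Notch1+ cells the 1 gene lower at P0 than at E14 became 7 with the common median (Aurka, Cks1b, Foxm1, Kif4, Ndc80 and Top2a beside Mki67), 2 in the authors' value table, 3 with no filter, and 0 with the groups alone, with the re-dip mark or by the t-test. In whole retina the 7 lower became 3 by the t-test and, with the replicate number as a block, 4. That replicate block gave 12 higher genes at P0 and 2 at E14, and samples of the same number did not deviate together (r of -0.056 to 0.084). With so few arrays per group, that check cannot exclude that such samples shared a dissection.

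With the common median the P0 median was -0.033, against -0.37 over all probes, and Aurkb and Foxm1 turned to -0.14 and -0.078. The median of the difference between stages was -0.12 with the common median and -0.012 in the authors' value table, against -0.23 and -0.16 over all probes. The cause was not tested. With 1 array left out, the P0 count ranged from 11 to 14 and its median from 0.48 to 0.70, the E14 count from 0 to 3 and its median from 0.15 to 0.33. In Notch1+ cells between stages the count of lower genes ranged from 0 to 2, of higher genes from 0 to 1, and the median from -0.21 to 0.040, the highest without P0 Notch1+ replicate 4. In whole retina between stages 2 to 7 were lower, with a median of -0.44 to -0.23, and 15 to 19 genes differed among the 4 groups. The median of the difference between stages lay between 0.12 and 0.33. Dim probes such as Mki67 at P0 are limited by background.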
